A study of Zea mays with 12 samples.

Results

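Cryptochromes are blue-light receptors of plants that bind a flavin. When lit, they change the activity of transcription factors and of protein-degrading complexes, and so the transcription of many genes. The light-steady genes lower in zmcryq are the other side of that picture: genes whose RNA in maize leaves was low in the mutant stock zmcryq, with and without blue light, and moved little with blue light in either genotype. Little is meant on the log2 scale used here, which adds 1 to each value and so damps changes of scarce RNA. They were chosen by the measured RNA values themselves. A gene belonged to the set when its mean of log2(scaled FPKM + 1) was at least 2 lower in zmcryq than in B73 both in the dark and in blue light, and when blue minus dark stayed within 0.75 of 0 in both genotypes. The rule took 168 of 21472 tested genes, that is, of those that reached 1 FPKM in 3 or more libraries, among 44303 gene IDs in the table.

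Leaves of maize seedlings labelled as 7 days old were sampled in 4 groups of 3 libraries: zmcryq mutant kept in the dark, zmcryq given blue light for 1 h, wild-type B73 kept in the dark, and B73 given blue light for 1 h. Plants of all groups had grown in long days of white light and had then spent 48 h in darkness. B73 is the inbred line of the maize reference genome, and zmcryq is, by its name, a mutant of maize cryptochrome genes. The labels give neither the alleles in the stock nor the line it was made in, so effects of the cryptochrome mutations and of other differences between the stocks cannot be told apart. Whether replicates came from different plants is not labelled, so errors describe only how these libraries vary, and that variation may be technical. In bulk leaf RNA, fewer cells of a type and less RNA per cell cannot be told apart.

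FPKM are fragment counts divided by transcript length and by the library's mapped fragments. Deposited totals ran from 588717 to 814802 FPKM per library. Each library was divided by its median ratio to the genes' geometric means, with factors of 0.507 to 1.64, and values below are in these scaled FPKM. The depth in fragments is not given. The number of IDs matched to a gene name was 0, in the only name table at hand (RefSeq, assembly Zm-B73-REFERENCE-NAM-5.0), so genes are given by ID and without roles. Leaf tissue markers and the cryptochrome genes could not be looked up for the same reason.

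Most of the 168 genes had a moderate level in B73 and little RNA in zmcryq, where 102 stayed under 1 scaled FPKM in all 6 libraries and 38 were over 1 in all 6. Their median, taken over the mean of the 6 libraries of a genotype, was 0.245 scaled FPKM in zmcryq and 13.1 in B73, beside 8.17 in B73 for all tested genes. A gene scarce in B73 cannot meet the rule on this scale, and the lowest B73 mean of a member was 3.14, so the rule shapes this comparison. By library, the median member ran from 0.178 to 0.252 scaled FPKM in zmcryq and from 11.8 to 13.4 in B73. The members' summed level was 536 to 675 scaled FPKM in the zmcryq libraries and 5404 to 8401 in the B73 libraries. Summed over libraries, zmcryq held 9.56% of the B73 amount. In B73, 101 members averaged 5 to 20 scaled FPKM (53 up to 10 and 48 above), 10 averaged 5 or less, 41 averaged 20 to 50, 7 averaged 50 to 100 and 9 exceeded 100.

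**Figure D1:**
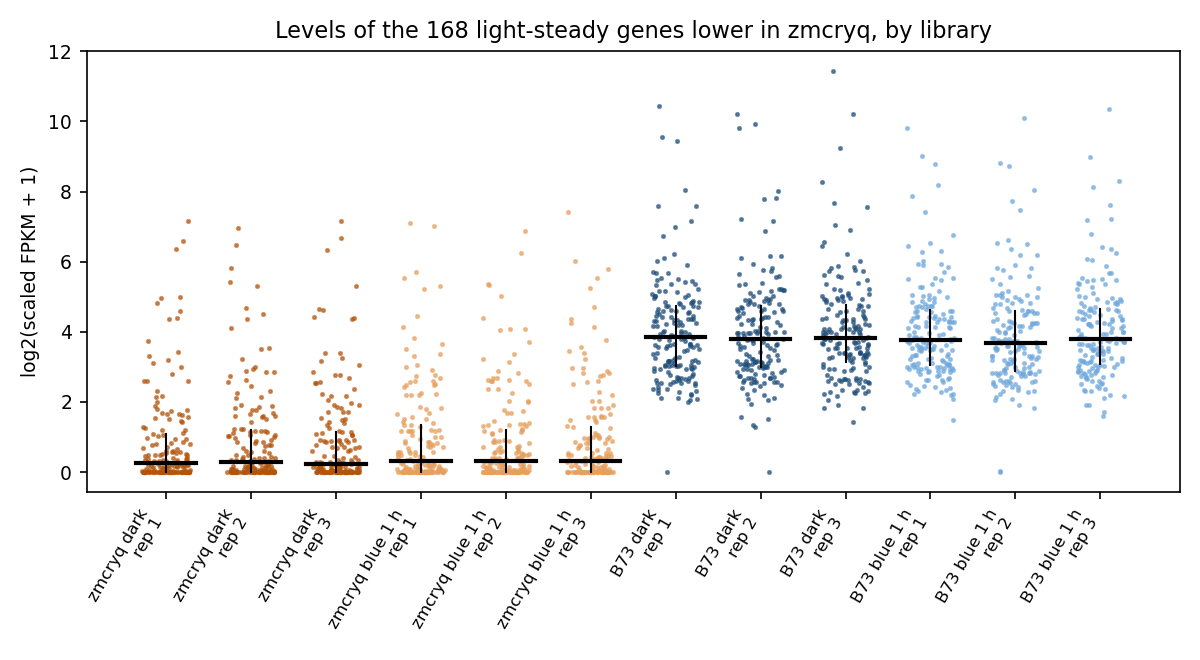
Each point is 1 of the 168 genes in 1 library, as log2(scaled FPKM + 1); thick bars are medians and thin lines run from the lower to the upper quartile. The medians of the 6 zmcryq libraries lie between 0.178 and 0.252 scaled FPKM and those of the 6 B73 libraries between 11.8 and 13.4.

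The rule worked on group means, so the separation of single libraries was looked at next. In 166 of the 168 genes each zmcryq library was below each B73 library, a pattern met by 11.4% of all tested genes. With limma and Benjamini-Hochberg adjustment over all tested genes, 166 members were called lower in the dark and 166 in blue light (adjusted p under 0.05), against 24.7% and 28.1% of tested genes. The rule used these contrasts, so the counts only describe how far the libraries of a group spread. The same 2 genes, singled out after their values were seen, fell outside all 3 counts. Zm00001eb439530 was above 0 in zmcryq only at 0.456 scaled FPKM in dark replicate 2 and 3.58 in blue replicate 1. In B73 it was at 1188 in dark replicate 3, at 10.5 and 148 in blue replicates 1 and 3, and at 0 in the other 3 libraries. Its place in the set rested on those 3 B73 libraries. Zm00001eb435390 was listed at 2.55 scaled FPKM in zmcryq dark replicate 2 and at 0 in the other zmcryq libraries, and at 11.5, 1.44 and 9.19 in dark B73 and 12.3, 0.0176 and 19.4 in blue-lit B73. Its B73 values thus overlapped those of zmcryq in 2 libraries.

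The 8 genes with the lowest mean of the dark and blue differences were, but for Zm00001eb147930, at 0 to 0.262 scaled FPKM in zmcryq, and all 8 were at 24.2 to 59.6 scaled FPKM in B73. Zm00001eb015410, the lowest, was listed at 0.0465 scaled FPKM in zmcryq dark replicate 2 and at 0 in the other 5 zmcryq libraries, against 44.9, 48.8 and 48.1 in dark B73 and 40.2, 33.6 and 38.0 in blue-lit B73. Zm00001eb253590 was listed at 0 in all 6 zmcryq libraries, against 39.4, 36.5 and 52.6 scaled FPKM in dark B73 and 32.0, 29.0 and 33.6 in blue-lit B73. Zm00001eb224470 was also listed at 0 in all 6 zmcryq libraries, against 40.4, 41.1 and 46.5 scaled FPKM in dark B73 and 31.9, 27.2 and 24.2 in blue-lit B73. In these 3 genes the genotypes were far apart in every library, and each dark B73 library was above each blue-lit B73 library.

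The other 5 of the 8 showed traces in some zmcryq libraries. Zm00001eb128360 had at most 0.158 scaled FPKM in zmcryq and 28.3 to 43.0 in B73. Zm00001eb053450 was above 0 in a single zmcryq library, at 0.0973 scaled FPKM, and ran from 29.7 to 43.6 in B73. Zm00001eb210220 was likewise above 0 in 1 zmcryq library, at 0.0183, and ran from 28.7 to 55.5 in B73. Zm00001eb292580 reached 0.262 scaled FPKM in zmcryq, against 29.8 to 56.7 in B73. Zm00001eb147930 differed from the rest in that 3 zmcryq libraries were at 0 and the other 3 at 1.73, 1.78 and 2.79 scaled FPKM, against 32.7 to 59.6 in B73. On the log2(scaled FPKM + 1) scale the dark differences, zmcryq minus B73, of these 8 genes ran from -5.57 ± 0.09 (limma SE) for Zm00001eb015410 to -4.92 ± 0.55 for Zm00001eb147930. With zmcryq at 0, the size of such a difference is set by the B73 level and the pseudocount of 1, and no fold is given.

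Of the 6 members with most RNA in B73, all but Zm00001eb439530 had 7.5 to 17.3% of their B73 mean in zmcryq. That gene, described above, had 0.299%. Zm00001eb206040 had 141, 123 and 141 scaled FPKM in zmcryq dark and 137, 117 and 169 in zmcryq blue, against 1379, 1182 and 2780 in dark B73 and 890, 1096 and 1305 in blue-lit B73. Its mean in zmcryq was 9.58% of that in B73, with a dark difference of -3.61 ± 0.28 and a blue difference of -2.95 ± 0.28 (log2, limma SE). Zm00001eb416770 had 81.9, 55.4 and 79.8 scaled FPKM in zmcryq dark and 51.3, 40.3 and 54.6 in zmcryq blue, against 687, 902 and 604 in dark B73 and 520, 452 and 510 in blue-lit B73. That is 9.88% of the B73 mean. Zm00001eb417550 had 95.8, 88.6 and 102 scaled FPKM in zmcryq dark and 129, 75.4 and 63.8 in zmcryq blue, against 751, 975 and 310 in dark B73 and 437, 420 and 316 in blue-lit B73, or 17.3% of the B73 mean. B73 dark replicate 3 was the highest B73 dark library for Zm00001eb206040 and the lowest for Zm00001eb416770 and Zm00001eb417550. In all 3 genes the zmcryq libraries lay below the B73 libraries, while dark and blue-lit libraries overlapped within B73 in Zm00001eb206040 and Zm00001eb417550.

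Zm00001eb312390 kept 7.5% of its B73 mean, with a mean of 16.8 scaled FPKM over the 6 zmcryq libraries, and with 187 to 263 over the B73 libraries. Zm00001eb038930 kept 14.3%. It had 27.6, 24.8 and 24.0 scaled FPKM in zmcryq dark and 45.0, 39.5 and 45.0 in zmcryq blue, against 190, 223 and 203 in dark B73 and 288, 261 and 278 in blue-lit B73. In this gene the blue libraries were above the dark ones in both genotypes, by 0.74 in zmcryq and 0.43 in B73 (log2), the first close to the limit of 0.75. The 3 most abundant members made up 40.3% of the set's summed B73 level and the 6 most abundant, with Zm00001eb439530 among them, 51.0%.

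Across the set, the remaining level in zmcryq split by abundance. It was listed at 0 in all 6 zmcryq libraries for 28 genes (16.7% of the set, beside 0.801% of tested genes), at 0 in 1 to 5 libraries for 45, and above 0 in all 6 for 95. The rule chose low zmcryq values, and a gene at 0 in all of them passed the filter only through B73, so the rule shapes this share. A listed 0 can stand for too few fragments or for a failed estimate. The 28 had B73 means of 3.14 to 37.2 scaled FPKM with a median of 7.24. As a share of the B73 mean, zmcryq stood at up to 1% in 60 genes, those 28 included, at 1 to 5% in 46, at 5 to 10% in 28, at 10 to 20% in 31 and above 20% in 3. The median share was 2.28% and the highest 24.9%, in Zm00001eb058700. Among the 16 members above 50 scaled FPKM in B73, the median share was 14.8%, and 1 of them, Zm00001eb439530, was listed at 0 in any zmcryq library. Among the 152 others the median share was 1.72%. The rule lets an abundant gene enter with a larger share of its level left than a scarce one, because of the pseudocount, so it shapes this split in part. The 177 genes that met the mirrored rule, 2 or more higher in zmcryq, were listed at 0 in all 6 B73 libraries in 65 cases (36.7%). The mirrored rule shapes that share in the same way.

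**Figure D2:**
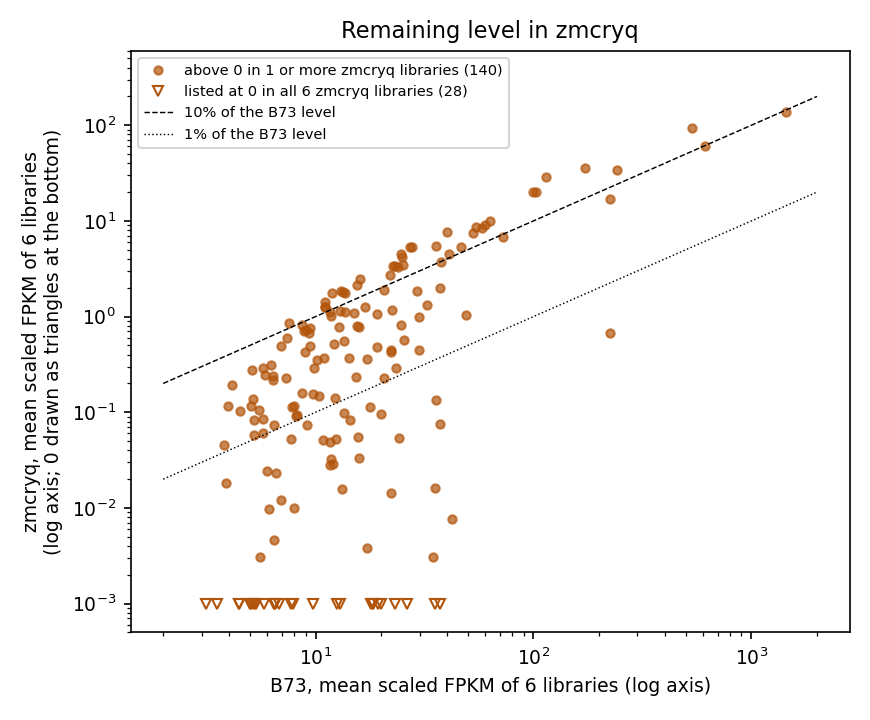
Each point is 1 of the 168 genes, with its mean over 6 B73 libraries across and its mean over 6 zmcryq libraries up, both in scaled FPKM on log axes; triangles at the bottom are the 28 genes listed at 0 in all zmcryq libraries. Of the genes above 50 scaled FPKM in B73 all but Zm00001eb439530 lie near or above the 10% line, and the scarcer genes run from above that line down to 0.

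By the rule, the genotype differences in dark and blue light could not lie far apart, since blue minus dark was held within 0.75 of 0 in both genotypes, and the values that follow only describe the set. The median difference, zmcryq minus B73, was -2.86 in the dark and -2.87 in blue light (log2), and over all tested genes 0.03 and 0.02. The dark differences ran from -5.57 to -2.01 and the blue ones from -5.25 to -2.01. In 123 of the 168 genes the 2 differences lay within 0.5 of each other. The dark difference was the larger in size in 100 genes and the blue one in 68. Across the 168 genes, which are not independent replicates, the differences correlated at r = 0.885 (Pearson) and 0.798 (Spearman). The dark and blue values come from separate libraries but share the rule's thresholds, its limit on the blue responses and the B73 level of each gene.

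**Figure D3:**
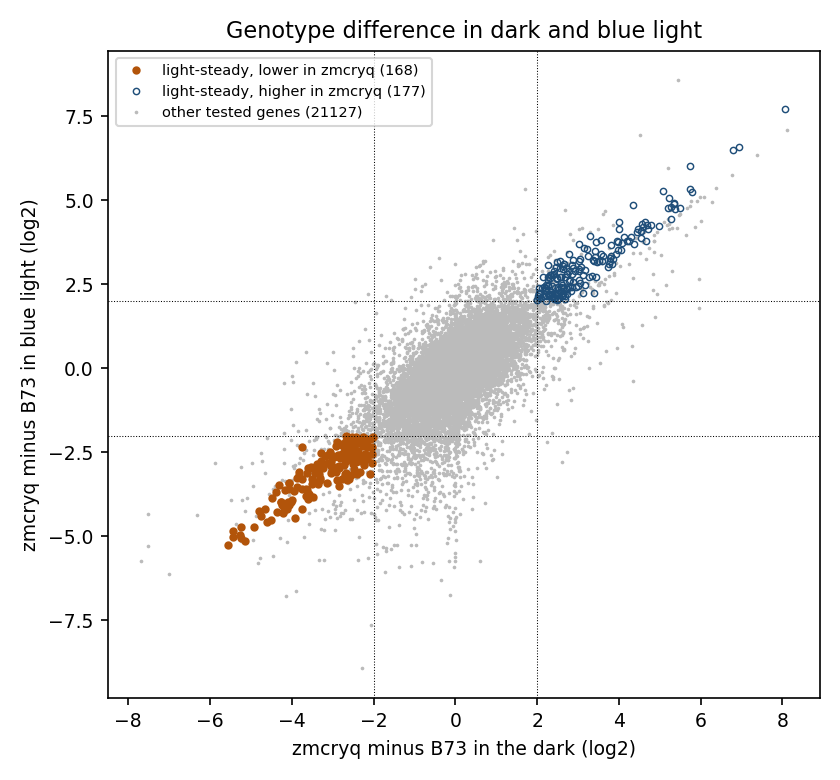
Each point is a tested gene, with zmcryq minus B73 in the dark across and in blue light up (log2 of scaled FPKM + 1); filled points are the 168 genes, open points the 177 of the mirrored rule, and dotted lines mark -2 and 2. The 168 lie along the diagonal from about -2 to -5.57.

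Blue light moved the members little by construction, and what was left of a response was compared between the genotypes. In zmcryq the median blue minus dark was 0, with quartiles of -0.03 and 0.15, and in B73 it was -0.08, with quartiles of -0.33 and 0.23 (log2). limma called a blue response for 20 members in zmcryq (13 up and 7 down) and for 53 in B73 (25 up and 28 down), where 56.2% and 52.1% of tested genes were called. The difference of the responses, zmcryq minus B73, was called for 13 members (8 higher and 5 lower), beside 25.8% of tested genes. The rule limits both responses, so nothing is read from these shares. The largest of the 13, Zm00001eb051020, was picked out after its values were seen. It had 2.17, 2.61 and 2.77 scaled FPKM in zmcryq dark and 4.60, 5.06 and 5.01 in zmcryq blue, against 50.4, 53.4 and 36.4 in dark B73 and 25.4, 31.0 and 29.7 in blue-lit B73. It thus went up with blue light in the mutant and down in B73, each by less than 0.75 on the log2(scaled FPKM + 1) scale. The difference was 1.42 ± 0.20 (log2, limma SE). Single libraries moved the count of 13. It was 30 when B73 dark replicate 3 was left out, 8 when zmcryq dark replicate 1 was, and 7 or 6 when replicate 1 or replicate 3 of zmcryq in blue light was. The calls over all tested genes moved too, from 5543 to 7308, 4545, 4235 and 4548 in the same repeats. With unscaled values the members' count was 0, where 1 member had an unadjusted p under 0.05 in limma against 33 after scaling. Over all tested genes, 1017 were called unscaled.

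Within groups, the members varied more than other genes in B73. The within-group SD on the log2 scale, which the rule did not use directly, had a median of 0.11 in zmcryq and 0.25 in B73, beside 0.13 and 0.20 for all tested genes. A wide spread can still carry a group mean past the threshold, as in Zm00001eb439530, so the choice of members is not free of it. In the middle range of the members' B73 levels, 84 members had medians of 0.14 in zmcryq and 0.28 in B73, and 6438 other genes at the same B73 levels 0.11 and 0.18. Matching was on the B73 level only, and the members' zmcryq levels were low by the rule, so the zmcryq SDs are not compared at like levels. In B73 the SD exceeded 0.5 in 26 members (15.5%) and in 7.95% of tested genes. These are descriptions without a test. By library, B73 blue replicate 1 held the highest of the 3 B73 blue values in 80 members and replicate 2, the library with the lowest factor in its group (0.567), in 27, while among all tested genes these shares were 33.4% and 32.3%. The members listed at 0 numbered 57 in zmcryq dark replicate 1, which had the lowest factor of all (0.507), and 45 to 50 in the other zmcryq libraries. The part of these library differences in the results was not tested.

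The threshold itself divides genes that hardly differ. Just inside it were Zm00001eb058700, with differences of -2.01 in the dark and -2.05 in blue light, Zm00001eb051130, with -2.67 and -2.01, and Zm00001eb011120, with -2.52 and -2.03. Just outside were Zm00001eb043760, with -1.99 and -2.23, Zm00001eb114220, with -1.99 and -2.20, and Zm00001eb416200, with -2.33 and -1.98. In all, 529 tested genes were lower by 2 or more in the dark and 978 in blue light, 345 in both, and 168 of the 345 (48.7%) were also light-steady, as were 56.5% of all tested genes.

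The IDs were then read in order. In the maize annotation that uses this form of ID, numbers increase along each chromosome in turn, so near numbers are as a rule near genes. The files give no positions, and the ends of chromosomes are not marked here. Tightly packed members were few. With blocks defined as 4 or more members that have at most 10 other tested genes between neighbours, 3 blocks held 12 of the 168 genes, beside 1 block of 4 among the 177 genes of the mirrored rule. Side by side, with no tested gene between them, stood 21 members in 9 pairs and 1 run of 3. That is 12.5% of the set, while 1.46% of other tested genes stood next to a member. Among the mirrored genes, 11 (6.21%) stood next to another of their kind.

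In the first block, from Zm00001eb117320 to Zm00001eb117430, the run of 3 opened the row. Zm00001eb117320 had 0.0651 to 0.22 scaled FPKM in zmcryq and 6.01 to 13.2 in B73. Its neighbours Zm00001eb117330 and Zm00001eb117340 were listed at 0 in all 6 zmcryq libraries, against 11.0 to 23.6 and 1.56 to 12.5 scaled FPKM in B73. Zm00001eb117430 closed the block at 30.9 to 38.9 scaled FPKM in zmcryq and 131 to 220 in B73, 20.7% of the B73 mean. Of the 4 other tested genes in between, 1 was also lower by 1 or more in both lights. That gene, Zm00001eb117370, differed by -3.18 in the dark and -4.49 in blue light, and it was no member because it rose with blue light by 2.51 in zmcryq and 3.82 in B73 (log2).

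The second block ran from Zm00001eb210220 to Zm00001eb210330, and its 7 tested genes were lower in zmcryq in both lights. Its 4 members were at 0 to 0.353 scaled FPKM in zmcryq, with Zm00001eb210230 and Zm00001eb210330 listed at 0 in all 6 libraries, and at 3.36 to 55.5 in B73. Zm00001eb210220 was described above. Zm00001eb210320 had 0, 0.0558 and 0.0275 scaled FPKM in zmcryq dark and 0.134, 0.104 and 0.353 in zmcryq blue, against 21.7, 24.4 and 15.9 in dark B73 and 20.5, 11.8 and 12.2 in blue-lit B73. The other 3 genes differed by -3.10 to -1.03 in the dark and by -2.23 to -0.33 in blue light. Of the 12 IDs deposited for this stretch, 5 had been removed by the filter, 4 of them at 0 in all 12 libraries.

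The block from Zm00001eb416750 to Zm00001eb417060 was looser, with 11 other tested genes among its 15. Its members were Zm00001eb416750, at 2.53 to 4.22 scaled FPKM in zmcryq and 19.5 to 26.5 in B73, the abundant Zm00001eb416770, Zm00001eb417040, at 0.0237 to 0.205 in zmcryq and 6.26 to 12.8 in B73, and Zm00001eb417060, at 0.207 to 0.727 in zmcryq and 12.0 to 18.6 in B73. The other 11 genes had median differences of -0.23 in the dark and 0.13 in blue light, and 1 of the 11 was lower by 1 or more in both lights, so these members stood among genes that mostly differed less. Copies of a gene that lie side by side can share fragments, and how the authors counted these is not given in the sources used here.

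**Figure D4:**
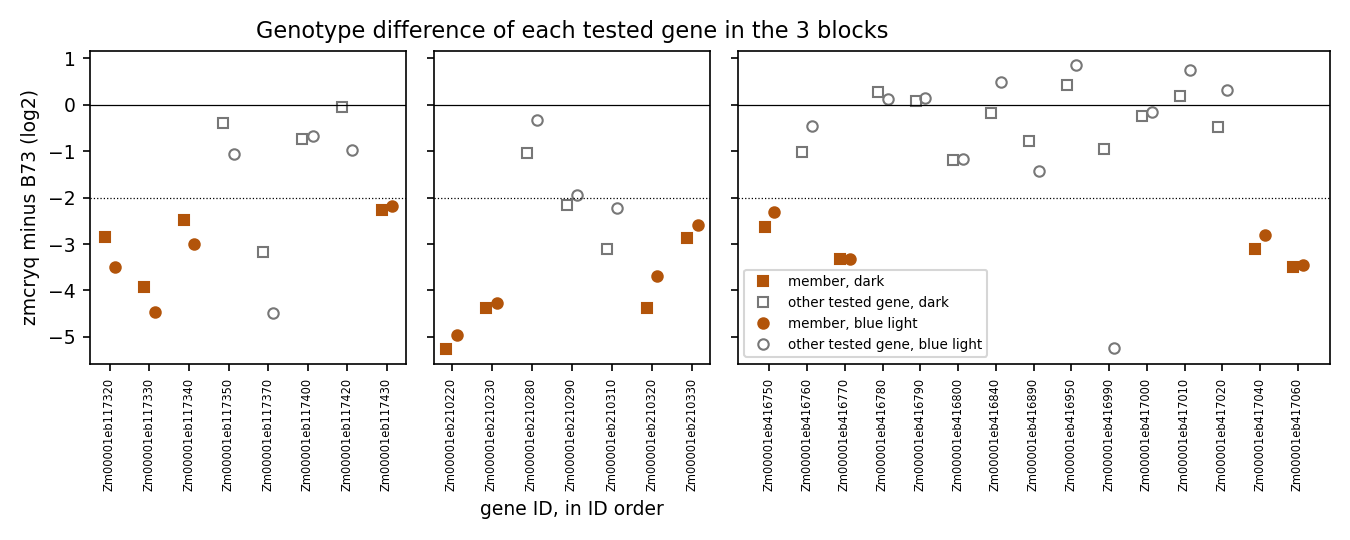
Each symbol is a tested gene of the 3 blocks in ID order, with zmcryq minus B73 (log2) up; squares are the dark and circles the blue-light difference, filled for members and open for other genes. In the second block all 7 genes lie below 0, and in the block on the right the 11 other genes lie between -1.19 and 0.86 but for the blue-light value of Zm00001eb416990 at -5.25 and that of Zm00001eb416890 at -1.43.

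At a coarser scale the members were unevenly spread. Of 215 windows of 100 tested genes, with 0.781 members on average, 131 held no member, 41 held 1, 19 held 2, 12 held 3 and 12 held 4 to 6. Those last 12 windows held 53 members (31.5%). Of the genes of the mirrored rule, 12 (6.78%) lay in windows with 4 or more. Another member lay within 20 places of 88 members (52.4%), whereas 21.4% of other tested genes lay that near to one, and 61 of the mirrored genes (34.5%) had another of their kind within 20 places. The longest stretches free of members were 1275 tested genes from Zm00001eb071820 to Zm00001eb099960, 1070 from Zm00001eb352390 to Zm00001eb374120 and 1046 from Zm00001eb166120 to Zm00001eb189530. They held 8, 9 and 11 genes of the mirrored rule.

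Windows of 500 tested genes, a size chosen after the counts were seen, drew the stretches together. In 12 of 43 windows there were 7 to 12 members, and these windows held 101 members (60.1%) in 27.9% of the tested genes. They joined into 5 stretches. From Zm00001eb009680 to Zm00001eb060840 there were 45 members in 2500 tested genes, from Zm00001eb111400 to Zm00001eb143490 there were 24 in 1500, and from Zm00001eb194610 to Zm00001eb214020 there were 18 in 1000. Single windows with 7 members each began at Zm00001eb376730 and at Zm00001eb407690. In 14 windows there were 0 or 1 members, 6 genes in 32.6% of the tested genes. All 3 blocks lay in windows with 7 or more members, the one from Zm00001eb416750 in the window that began at Zm00001eb407690.

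Non-members of these windows, which the rule had not taken, were more often lower in zmcryq in the windows rich in members than in the poor ones. Both kinds of window were defined from the members, in the same 12 libraries, and no test was made. Some of the non-members lower in zmcryq had met both genotype thresholds of the rule and failed only its limit on the blue responses. In that part, members and non-members differ by the limit on the blue responses alone. In the 12 windows rich in members, 427 of 5899 non-members (7.24%) were lower in zmcryq by 1 or more in both lights, and 322 (5.46%) were higher by as much. In the 14 windows with 0 or 1 members, 199 of 6994 (2.85%) were lower and 311 (4.45%) higher. In the 17 windows between, with 2 to 6 members, 461 of 8411 (5.48%) were lower and 424 (5.04%) higher. By window, the share lower ran from 4.06 to 9.13% in the rich windows and from 1.80 to 4.8% in the poor ones, so these ranges overlapped only in part. In the windows between, it ran from 2.01 to 8.84%, across most of both ranges. In the rich windows more non-members were lower than higher, except in 2 of them. These were the window from Zm00001eb111400, with 31 lower and 32 higher, and the window from Zm00001eb407690, with 20 lower and 35 higher. The share of non-members called for a blue response was 57.3% in zmcryq and 52.7% in B73 in the rich windows, and 56.9% and 52.9% in the poor ones. The median B73 level of non-members was 8.12 scaled FPKM in the rich and 7.90 in the poor windows, and 47.8% and 48.3% of the deposited IDs there had been tested. The part of these in the shares of lower genes was not tested. Over the 42 full windows the number of members correlated with the number of other genes lower by 1 or more at r = 0.720 (Spearman 0.738), with the number of other genes higher by as much at 0.231 (0.229) and with the number of mirrored genes at 0.262 (0.281). These windows share the 12 libraries, and the correlations are a description. Unscaled, where the median of all tested genes shifted to -0.38 in the dark and 0.17 in blue light, the shares lower were 8.71% in the rich and 4.09% in the poor windows and the shares higher 4.20% and 3.02%.

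**Figure D5:**
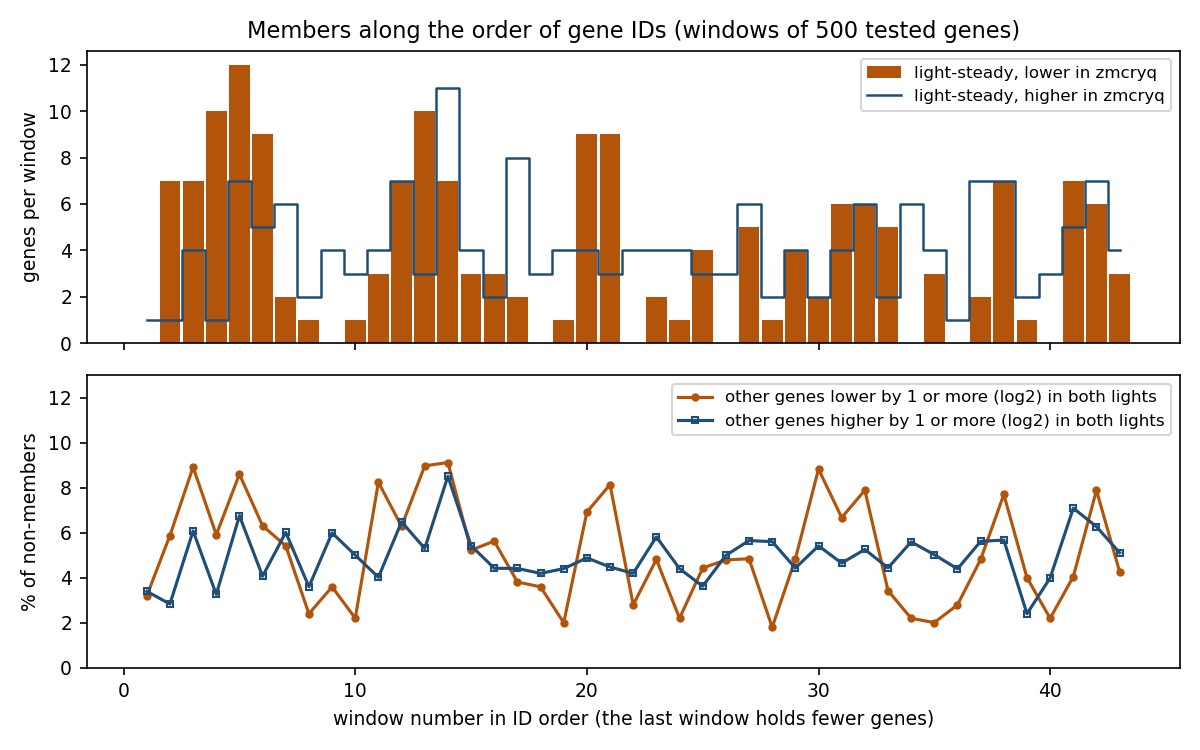
Tested genes are put in ID order and counted in windows of 500; the upper panel gives the number of light-steady genes lower (bars) and higher (line) in zmcryq, the lower panel the percentage of non-members lower (circles) or higher (squares) in zmcryq by 1 or more (log2) in both lights. The bars reach 12 members in 1 window and are at 0 or 1 in 14 windows, and the share of lower genes ranges from 1.80 to 9.13%.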

How the data were processed

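The authors deposited 1 table with a column of gene values for each library, read here as FPKM: no header or label states the unit, and TPM over a larger gene set would look alike. Per the labels' protocols, libraries of leaf RNA were prepared with a TruSeq kit from Illumina. The submitters' processing notes name Trimmomatic 0.36, HISAT2 2.2.1.0, Cufflinks, TopHat, Bowtie2 and DESeq 1.18.0, without roles. The sources used here state no build, annotation release or use of strand. The authors' 4 columns of group means were not used.

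Genes at 1 or more in 3 libraries were kept, libraries were divided by median-ratio factors over 19555 genes above 0 in all, and members were taken from group means of log2(value + 1). The threshold of -2 on this scale understates changes of low genes. limma 3.58.1 in R 4.3.3 (1 mean per group, trended and robust, all 12 libraries, Benjamini-Hochberg over all tested genes, 2-sided) gave SEs and calls, and was checked on made-up data with known answers. Other steps used Python 3.11.15. The members, lists and rules were chosen with earlier results of these data known. Genes named are the 8 lowest differences, the 6 most abundant in B73 and the 3 most abundant in zmcryq (all also among the 6). Block ends and block maxima, and 3 on each side of the threshold, are named as well. Further genes inside the blocks were named outside this rule, to describe the blocks. IDs that bound windows or stretches only mark places, and others are marked. Alternatives changed scaling, pseudocount, filter, thresholds, block rule, replicate block and libraries. Gene lists and markers written as names were not analysed here.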

Additional observations from a re-analysis of the deposited data

Results flagged for a closer look

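A difference of the genotype effect between dark and blue light, by limma's test of the difference itself over all tested genes, was called for 13 of the 168 genes. Of the genes named by the fixed rule, 3 were among them. The difference of blue responses, zmcryq minus B73, was 0.66 for Zm00001eb051130, -0.64 for Zm00001eb117320 and 0.61 for Zm00001eb224470 on the log2 scale. In Zm00001eb224470 it came from B73 alone, since zmcryq was listed at 0 in all 6 libraries. In Zm00001eb117320 nearly all came from B73, with blue minus dark of 0.65 there and 0.009 in zmcryq, whose mean was 0.157 scaled FPKM. In Zm00001eb051130 blue minus dark was 0.40 in zmcryq and -0.26 in B73. The rule for the set had limited the responses of both genotypes, and none of the 13 was called with unscaled values. Calls over all tested genes fell from 5543 to 1017 there. Groups of 3 libraries were too small to look for single samples far from the others.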

How the results depend on the processing

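The number of members depended on the rule's own numbers more than on scaling or single libraries. A pseudocount of 0.1 gave 269 and one of 5 gave 55 (128 and 42 shared with the 168), 110 with a light band of 0.5, 301 with a genotype difference of -1.5 and 104 with -2.5. Unscaled it was 178 with 141 shared, after quantile normalization 171 with 159 shared, and without 1 library at a time 163 to 176, with 147 to 165 shared. Without both libraries of lowest factor, a repeat chosen after seeing the data, it was 180 with 157 shared. Members in blocks numbered 12, but 34 with up to 20 genes between neighbours and 27 with blocks of 3 or more. In the windows rich in members, chosen on the 168, lay 101 of the 178 unscaled members, and 7 in the poor windows. Calls of a lower level stayed at 166 or 167 in all repeats. These repeats kept the list of 168 genes, which the rule had chosen by the same contrasts, so the steady count was largely set beforehand. Members called for the difference of blue responses numbered 13, 0 unscaled, 6 to 30 without 1 library, and 12 with the replicate block. Over all tested genes the calls numbered 5543, 1017 unscaled, 4235 to 7308 without 1 library, and 5320 with the replicate block. With the replicate number as a block the lower calls stayed at 166 in both lights. Over all tested genes the numbers did not pair the libraries throughout. Deviations of same-numbered libraries correlated at -0.304 to 0.315, over 0.1 in 4 of 18 pairs. Those of others ran from -0.373 to 0.285, over 0.1 in 11 of 36. The same-numbered pairs of blue-lit zmcryq and blue-lit B73 were at 0.052, 0.315 and 0.179, and the other pairs of these groups at -0.321 to 0.199. Over the 168 genes, the 3 same-numbered pairs of dark and blue-lit B73 libraries correlated at 0.305, 0.570 and 0.766 and the other B73 pairs at -0.743 to 0.318. In a repeat chosen after seeing the data, without the 2 genes whose genotypes overlapped, these were 0.339, 0.0534 and 0.461, and -0.539 to 0.430. With a limit of 0.1 scaled FPKM in place of 0, the 28 genes at 0 in zmcryq became 45. Depth in fragments is unknown, which limits what a listed 0 shows.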
